A study of Mus musculus with 6 samples.

Results

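The genes described here are 38 genes for the breakdown of glucose to pyruvate and lactate, for the entry of pyruvate into mitochondria, and for the sensing of oxygen. They were chosen by gene name. The 38 names matched 39 of the 54532 genes in the table, because Aldoa names a pair of loci, and all 39 had enough reads to be tested. RNA was sequenced from 6 libraries of immortalized cardiosphere-derived cells (iCDCs), a mouse line started from cells that grow out of explanted heart tissue and form floating spheres. The labels give strain C57BL/6, heart ventricle as the tissue and passage 30 for all 6 libraries. According to the methods of the study, the tissue was the epicardium of adult hearts, and all cells carry a lentiviral telomerase gene (hTERT) behind the CMV promoter and had been selected with puromycin. No source used here says whether the line descends from 1 cell.

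The 3 control libraries came from cells without further treatment. The 3 induced libraries came from cells that were given 10 µM 5-azacytidine, an inhibitor of DNA methylation, for 3 days. By the labels these cells then spent 4 weeks in IMDM medium with 2% serum, whereas the methods describe cardiac induction in a low-glucose DMEM and for a shorter time. Routine growth took place in IMDM with more serum, and no control kept in the later medium without the drug is described. Drug, serum, glucose supply and time in culture therefore cannot be told apart in any value given below. The labels name 3 separate samples per group, and p-values measure the spread between these samples only.

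Each library held 19041133 to 19823369 counted reads. Levels are read counts scaled by TMM to a common library size (CPM), fold changes are those of induced over control cells on the log2 scale, and a gene is called at an adjusted p under 0.05 by edgeR's quasi-likelihood test over all 14246 genes tested. Of these, 64.8% were called, so that a call alone is common in this comparison. The mesenchymal and cardiosphere markers Eng, Thy1, Ly6a, Pdgfra, Pdgfrb, Col1a1 and Col3a1 summed to 11518 to 12214 CPM in control and 11898 to 12538 CPM in induced libraries. All 7 were called, Eng (0.12), Thy1 (0.54) and Col3a1 (0.70) higher and Ly6a (-0.57), Pdgfra (-0.73), Pdgfrb (-0.27) and Col1a1 (-0.36) lower on the log2 scale, and the sum is mostly that of both collagens. The 8 markers of dividing cells, such as Mki67 and Top2a, were all lower, with sums of 740.3 to 773 CPM in control and 190.0 to 199 CPM in induced libraries. The sum of 11 cardiomyocyte markers was 13.2 to 16.1 against 60.0 to 63.7 CPM, of which Tnnt2 was the main part. Of the 3 tested, Tnnt2 (2.15 on the log2 scale) and Myl7, with 0 control and 74 induced reads, were called higher, and Tnni3 was not called. Ryr2, with 1 control and 29 induced reads, was not tested. Myh7, Actc1, Nppa, Nppb, Pln and Myl2 also had too few reads to be tested, and Myh6 had 1 read over all 6 libraries. The 10 leukocyte markers summed to 2.13 to 2.55 against 29.7 to 35.3 CPM, mostly from the lysosomal gene Cd68, which was called higher (3.89 on the log2 scale). Fcer1g, with 2 control and 187 induced reads, was also called higher (6.36, edgeR adjusted p 2.97e-09). Laptm5 and Cd79a had too few reads to be tested. Ptprc, Itgam, Cd52, Tyrobp, Adgre1 and Cd3e had 0 reads in all 6 libraries. The 7 endothelial markers summed to 1.60 to 1.88 against 1.21 to 2.30 CPM, mostly from Vwf, which was not called. Tek, with 7 control and 32 induced reads, was not tested. The 4 epicardial markers Tbx18, Upk3b, Wt1 and Tcf21 summed to 347 to 359 against 1019.9 to 1143 CPM, mostly from Upk3b. Upk3b, Wt1 and Tcf21 were called higher, and Tbx18 lower (-0.33 on the log2 scale, edgeR adjusted p 0.000429). The 6 erythroid markers had at most 0.255 CPM in sum in any library. The part of these shifts in the results below was not tested, and in bulk RNA fewer cells of a type and less RNA per cell cannot be told apart.

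Glycolysis splits glucose in the cytosol and yields pyruvate, which is either reduced to lactate and exported or oxidized in mitochondria after the pyruvate dehydrogenase complex has turned it into acetyl-CoA. Pyruvate dehydrogenase kinases switch that complex off. At low oxygen, prolyl hydroxylases stop marking the hypoxia-inducible factors Hif1a and Epas1 for degradation, and these factors then raise the transcription of many glycolytic genes and of genes for pH control and blood supply. Epicardial cells and embryonic heart muscle are known to lean on glycolysis, and adult heart muscle on the oxidation of fatty acids and lactate.

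Of the 39 loci, 27 were called (69.2%, against 64.8% of all genes tested), 16 higher and 11 lower in induced cells. Over all genes tested, 32.6% were called higher and 32.2% lower. The share of called loci was thus near the background. The same shares are the background for the counts by role given below. Among the called members 8 differed by 2-fold or more, 6 higher (Car9, Aldoc, Epas1, Pdk4, Slc16a1 and Egln3) and 2 lower (Eno3 and Pfkfb4). Of all genes tested, 17.1% changed at least 2-fold, 9.29% higher and 7.83% lower. The median log2 fold change of the members was 0.08, beside -0.01 for all genes tested, and members ranged from -2.18 to 3.74. The groups did not overlap for 29 of 39 loci, against 68.6% of all genes.

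**Figure D1:**
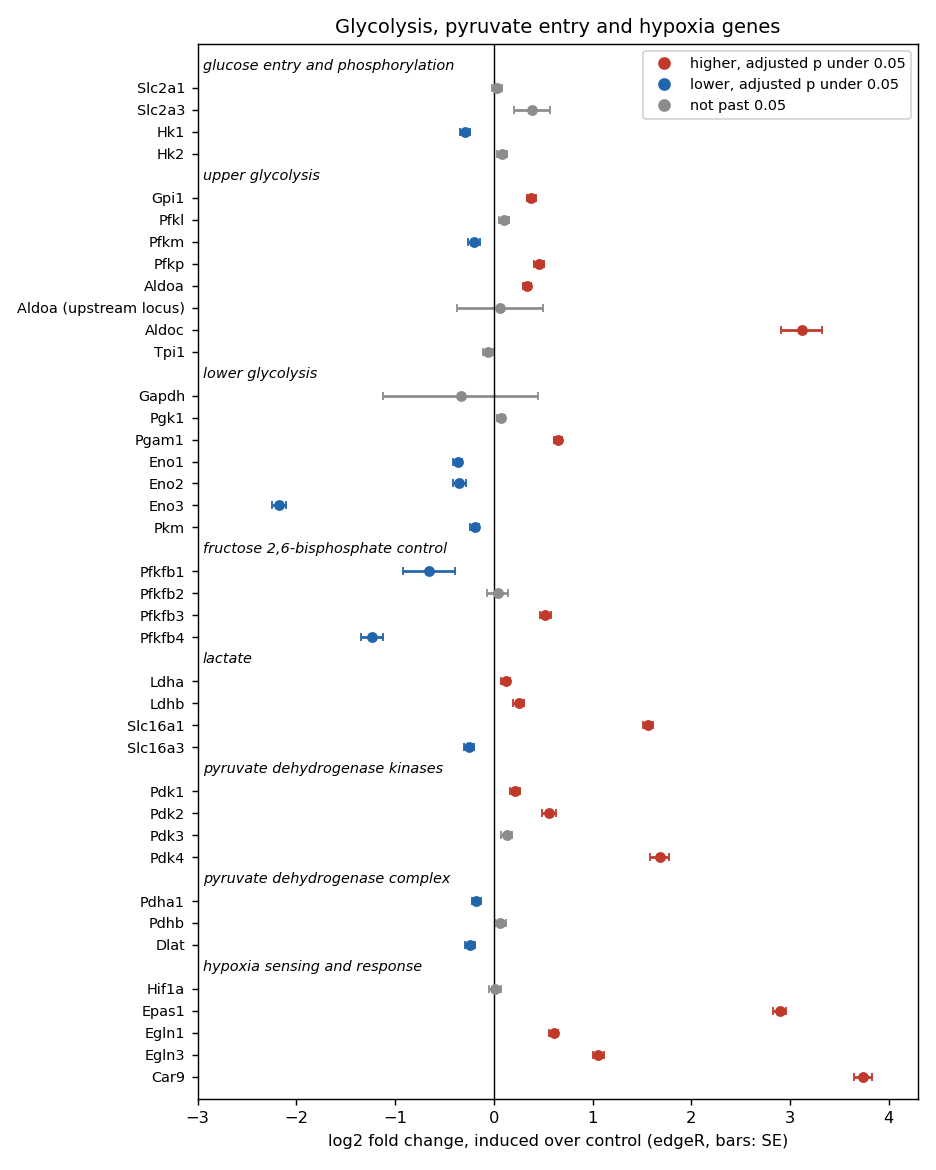
Log2 fold change of each member, induced over control cells, with its standard error (bars) on the x axis and the genes by role on the y axis. Red points were called higher, blue points lower, and grey points did not pass an adjusted p of 0.05. The enzymes of glycolysis lie between -0.36 and 0.65, apart from Aldoc at 3.12 and Eno3 at -2.18, Gapdh has the widest bar, while Epas1, Egln1, Egln3 and Car9 lie to the right.

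Of the 5 members for oxygen sensing and the hypoxia response 4 were called, all higher, 3 of them by at least 2-fold. Hif1a was not called. Over all genes tested, 64.8% were called, 32.6% higher, and 9.29% were called and at least 2-fold higher. Epas1 (ENSMUSG00000024140, chromosome 17, 86753907 to 86833410), which encodes the hypoxia-inducible factor HIF-2 alpha, had 10.9, 10.8 and 11.6 CPM in the control libraries and 80.6, 86.8 and 80.5 CPM in the induced ones. Every induced library lay far above every control library, a 7.45-fold difference (2.90 ± 0.0648 in log2 units with its SE, adjusted p 6.42e-17 by edgeR). Car9 (ENSMUSG00000028463, chromosome 4, 43506966 to 43513729) encodes a carbonic anhydrase of the cell surface that is a classical hypoxia target and helps to export acid. It had 4.25, 4.73 and 5.81 CPM in the control libraries and 68.0, 62.3 and 67.4 CPM in the induced ones, and its groups were 13.3-fold apart (3.74 ± 0.0912 in log2 units with its SE, adjusted p 2.07e-16 by edgeR). Its exons are overlapped over 9.3% of their length by the antisense gene Gm12454, and its count is uncertain to that extent where strand was not used.

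Egln3 and Egln1 encode oxygen-sensing prolyl hydroxylases, and Egln3 is itself a target of the factors it restrains. Egln3 had 52.2, 53.7 and 52.0 CPM in the control libraries and 106, 109 and 114 CPM in the induced ones (1.06 ± 0.0536 in log2 units with its SE, adjusted p 4.60e-12 by edgeR). Egln1 had 154, 149 and 154 CPM in the control libraries and 232, 234 and 230.1 CPM in the induced ones (0.61 ± 0.0458 in log2 units with its SE, adjusted p 1.34e-09 by edgeR). For both, the libraries of one group lay within a narrow band and the bands did not touch. Hif1a, the factor that drives most glycolytic genes at low oxygen, had 445, 432 and 436 CPM in the control libraries and 403, 491 and 429 CPM in the induced ones. Induced replicate 2 was highest and induced replicate 1 lowest of all 6 libraries, and no difference was detected (0.01 ± 0.0582 in log2 units with its SE, adjusted p 0.885 by edgeR). Its direction turned without induced replicate 2 (-0.07), without control replicate 2 (-0.00147) and under library totals alone (-0.03).

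**Figure D2:**
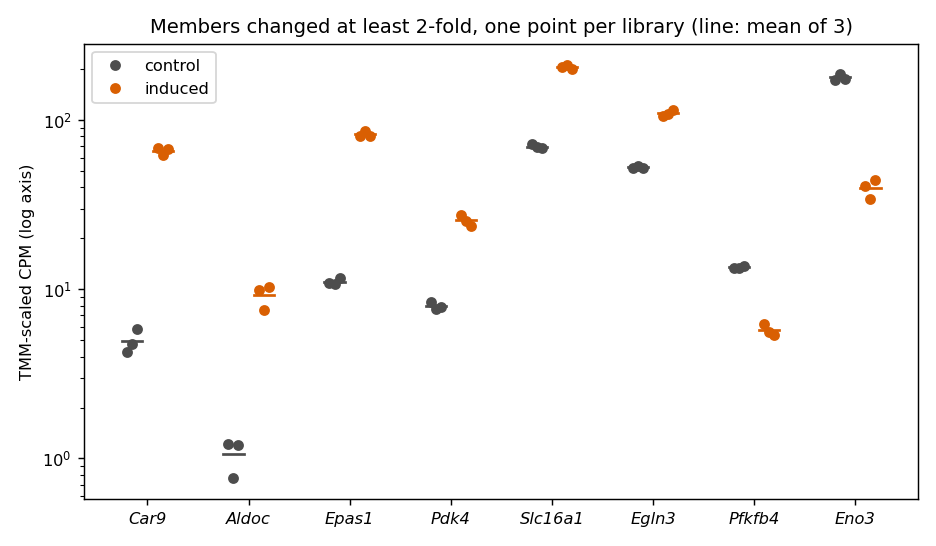
TMM-scaled CPM on a log axis for the 8 members changed at least 2-fold, with a point for each of the 3 control (grey) and 3 induced (orange) libraries and a line at the mean. In none of the 8 genes do the groups overlap, and Car9 lies at 4.25 to 5.81 CPM in control and at 62.3 to 68.0 CPM in induced libraries.

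The windows before the transcription start were read for 4 of the members that changed at least 2-fold, because hypoxia-inducible factors bind a short core word. The words searched were ACGTG and GCGTG on either strand (CACGT and CACGC on the strand shown), where ACGTG and CACGT share letters in the palindrome CACGTG and both are then counted. Sequences are RefSeq windows of GRCm38.p6, the build of the mm10 coordinates used by the authors, and matched 36 of the 38 names, Epas1 and Slc2a3 being the others. Each runs 5′ to 3′ on the strand of the gene from 250 bases before the start to 30 bases into the transcript, with the core words in capitals. Car9 (chr4:43506776-43507055, plus strand) and Egln3 (chr12:54203845-54204124, minus strand) are shown as hypoxia genes that rose, Slc16a1 (chr3:104638414-104638693, plus strand) as the lactate transporter that rose, and Eno3 (chr11:70656926-70657205, plus strand) as the member with the largest fall.
Car9: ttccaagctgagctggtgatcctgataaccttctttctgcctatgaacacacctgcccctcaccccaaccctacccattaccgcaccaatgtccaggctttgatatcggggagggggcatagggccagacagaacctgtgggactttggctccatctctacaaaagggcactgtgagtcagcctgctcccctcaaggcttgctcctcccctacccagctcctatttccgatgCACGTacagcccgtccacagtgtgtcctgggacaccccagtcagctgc
Egln3: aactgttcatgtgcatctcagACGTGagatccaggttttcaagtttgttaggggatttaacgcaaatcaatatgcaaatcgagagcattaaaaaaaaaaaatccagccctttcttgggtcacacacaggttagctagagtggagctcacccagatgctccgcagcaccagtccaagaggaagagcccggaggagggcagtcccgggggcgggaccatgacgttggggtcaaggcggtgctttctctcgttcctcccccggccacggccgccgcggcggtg
Slc16a1: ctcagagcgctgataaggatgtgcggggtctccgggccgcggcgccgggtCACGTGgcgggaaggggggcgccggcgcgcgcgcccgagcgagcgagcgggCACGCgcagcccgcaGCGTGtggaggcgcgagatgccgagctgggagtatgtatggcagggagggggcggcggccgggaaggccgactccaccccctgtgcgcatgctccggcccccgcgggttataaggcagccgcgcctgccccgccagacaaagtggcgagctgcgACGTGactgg
Eno3: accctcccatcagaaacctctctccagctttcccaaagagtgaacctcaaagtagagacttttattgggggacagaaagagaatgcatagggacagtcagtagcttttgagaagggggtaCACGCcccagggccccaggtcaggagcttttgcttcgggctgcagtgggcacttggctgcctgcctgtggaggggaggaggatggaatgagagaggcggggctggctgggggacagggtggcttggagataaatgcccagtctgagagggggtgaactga
In Car9 the single word begins 18 bases before the start. In Egln3 it begins 229 bases before the start. Slc16a1 holds 5 matches, and its window has 42 CpG dinucleotides, the target of DNA methylation, against 5 in Car9, 16 in Egln3 and 3 in Eno3, counted over the full window of 300 bases. Eno3, which fell, also holds a word. In the same full windows, 29 of 36 members (80.6%) held at least 1 word, against 43.8% of all 32851 windows of the table and 63.4% of the windows of 10321 tested genes. Each searched word contains a CpG, and these sets differ in CpG content, with medians of 20 in members, 7 in all windows and 21 in tested genes. The starts used for Pfkfb2, Hif1a and Ldha lay 13205, 6492 and 4329 bases from the deposited gene start. The word stood in 13 of 15 members called higher, in 7 of 11 called lower and in 9 of 10 not called. A match of 5 letters is a description of the sequence and not a binding site.

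A second list of 72 genes of the same pathways was set beside the members. It was not picked for how its genes moved in the counts, but earlier results of these data were known when it was written. Of 22 other hypoxia targets, all tested, 19 were called higher and 2 lower (95.5% called), with a median log2 fold change of 0.83. Over all genes tested, 64.8% were called, 32.6% higher and 32.2% lower. Ndrg1, a stress-induced growth regulator, had 92.1, 92.2 and 91.8 CPM in the control libraries and 401, 388 and 408 CPM in the induced ones (2.12 ± 0.0472 in log2 units with its SE, adjusted p 6.21e-17 by edgeR). Ero1l, an oxidase that forms disulfide bonds in the endoplasmic reticulum, rose from 94.3 ± 4.3 to 246 ± 15 CPM (SD, n = 3), and Bhlhe40, a transcriptional repressor, from 111 ± 2.25 to 258 ± 16.7 CPM, with log2 fold changes of 1.39 and 1.22 (adjusted p 1.67e-13 and 5.40e-13, edgeR). The angiogenic factor Vegfa, the mitophagy receptor Bnip3 and the collagen hydroxylase P4ha1 had log2 fold changes of 0.93, 0.85 and 0.71. Among these 22, the exceptions were Stc2, a secreted glycoprotein, with 42.9, 43.2 and 41.5 CPM in the control libraries and 27.7, 24.4 and 29.3 CPM in the induced ones (log2 fold change -0.65), the membrane carbonic anhydrase Car12 (-0.49), and the histone demethylase Kdm3a, which was not called (-0.03). Members described here as hypoxia targets or induced by hypoxia were mixed. Car9, Egln3 and Pdk1 were called higher, Slc16a3 and Pfkfb4 lower, and Hk2 was not called. This tally covers only members so described. The factors raise many glycolytic genes, so other members may be targets too and are left out of it. It is therefore not a like comparison with the second list.

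Of 9 other regulators of the factors, 8 were tested, 3 called higher and 1 lower. Vhl, the ubiquitin ligase subunit that removes hydroxylated factors, Cited2, which competes with them for a coactivator, and Hif1an, an asparaginyl hydroxylase that blocks them, had log2 fold changes of 0.79, 0.70 and 0.35. The shared partner Arnt was not called (0.09, edgeR adjusted p 0.168), and its relative Arnt2 was lower (-0.16). Hif3a, with 13 control and 11 induced reads, was not tested. RNA levels of the factors do not measure their protein, which is where oxygen acts on them.

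**Figure D3:**
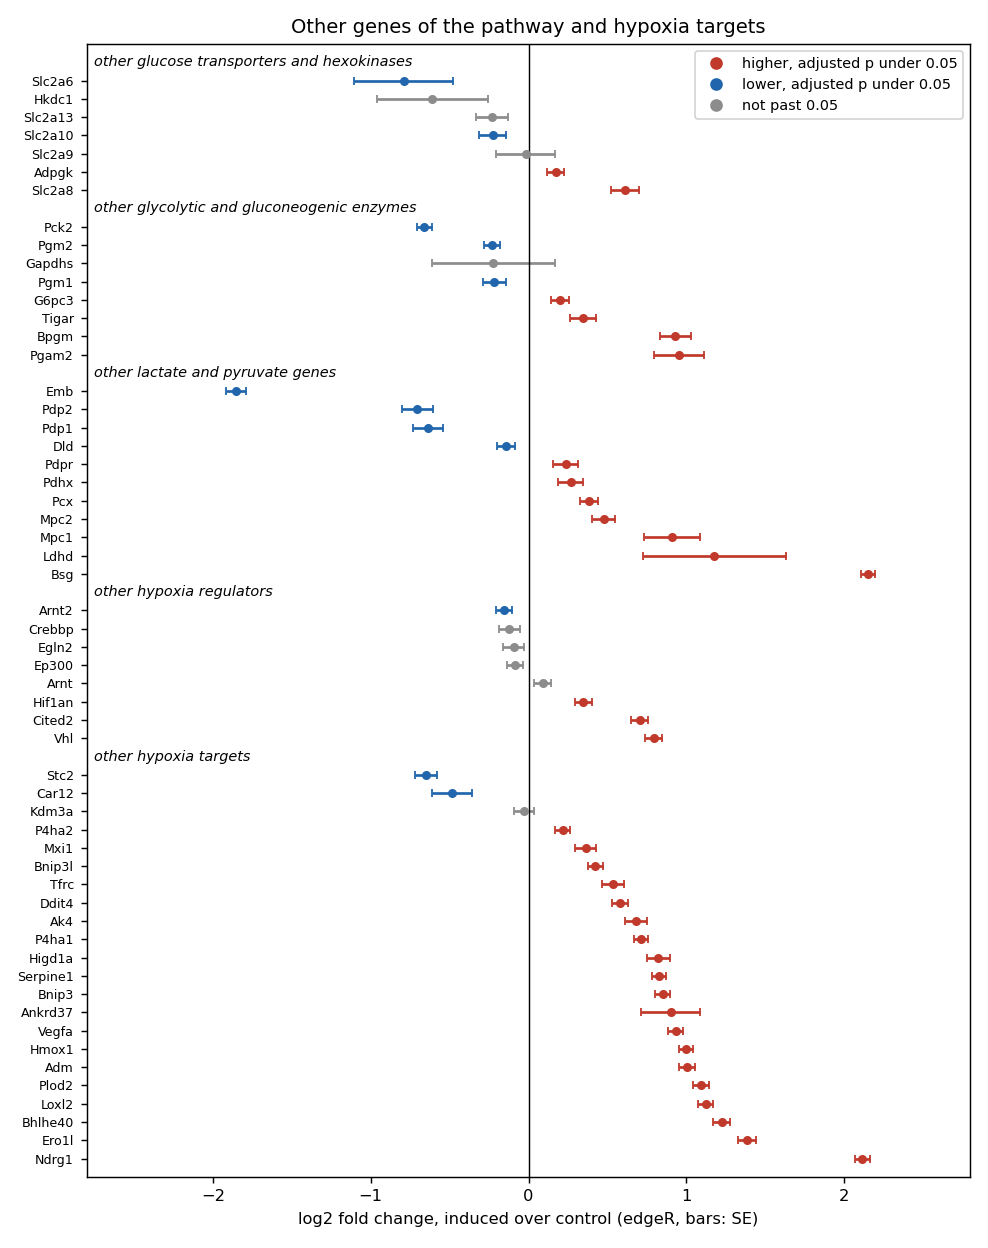
Log2 fold change with its standard error for the tested genes of the second list, grouped by role and ordered by value within each group, with the same colours as for the members. Of 22 other hypoxia targets 19 lie to the right and were called, where 32.6% of all genes tested were called higher. Bsg and Emb stand at the opposite ends of the lactate and pyruvate genes, at 2.15 and -1.85.

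Of the 4 transporters and hexokinases for glucose entry, 1 was called, Hk1, which was lower. Slc2a1, the main glucose transporter of most dividing cells, had 152, 163 and 160.2 CPM in the control libraries and 170.4, 156 and 159 CPM in the induced ones. The groups overlapped, and no difference was detected (0.03 ± 0.0514 in log2 units with its SE, adjusted p 0.57 by edgeR). Slc2a3, a transporter of higher affinity, was scarce, with 3.95, 3.61 and 3.10 CPM in the control libraries and 4.35, 3.94 and 5.65 CPM in the induced ones (0.39 ± 0.182 in log2 units with its SE, adjusted p 0.0706 by edgeR). It passed the threshold without induced replicate 2 (edgeR adjusted p 0.0251). Hexokinases trap glucose as glucose 6-phosphate. Hk1 fell from 225 ± 1.01 to 184 ± 8.85 CPM (SD, n = 3, -0.29 ± 0.0485 in log2 units with its SE, adjusted p 3.66e-05 by edgeR). Hk2, the isoform induced by growth signals and hypoxia, had 104, 105 and 106 CPM in the control libraries and 106, 116 and 111 CPM in the induced ones, and the groups lay side by side with hardly a gap between control replicate 3 and induced replicate 1, and it was not called (0.08 ± 0.0521 in log2 units with its SE, adjusted p 0.189 by edgeR). Of 12 other transporters and hexokinases, 7 were tested, 2 called higher and 2 lower. The muscle and fat transporter Slc2a4, with 7 control and 20 induced reads, was not tested.

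In upper glycolysis, down to the triose phosphates, 4 of 8 loci were called higher, 1 lower and 3 were not called. Aldoa, the ubiquitous aldolase, is the most abundant of them per length and had 1633, 1684 and 1726 CPM in the control libraries and 2212, 1995 and 2153 CPM in the induced ones (0.33 ± 0.0441 in log2 units with its SE, adjusted p 2.46e-06 by edgeR). The second Aldoa locus, which lies just upstream of the first on chromosome 7, had 0.506, 0.356 and 1.10 CPM in the control libraries and 0.637, 0.525 and 0.890 CPM in the induced ones and was not called (log2 fold change 0.06, edgeR adjusted p 0.911). Gpi1, the isomerase that follows hexokinase, rose from 773 ± 13.3 to 1005 ± 58.3 CPM (SD, n = 3), and Pfkp, the platelet-type phosphofructokinase, from 90.6 ± 2.95 to 124 ± 4.07 CPM (log2 fold changes 0.38 and 0.46, edgeR adjusted p 8.88e-07 and 3.78e-07). Aldoc, the brain-type aldolase, had 1.22, 0.764 and 1.20 CPM in the control libraries and 9.88, 7.57 and 10.3 CPM in the induced ones. It stayed scarce in both groups, and induced cells were 8.68-fold higher (3.12 ± 0.206 in log2 units with its SE, adjusted p 2.11e-10 by edgeR).

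Pfkl, the liver-type and here the leading phosphofructokinase, had 459, 461 and 480.5 CPM in the control libraries and 527, 466 and 513 CPM in the induced ones. Induced replicate 2 fell among the control values, and Pfkl was not called (0.10 ± 0.0495 in log2 units with its SE, adjusted p 0.0745 by edgeR), whereas it passed with no filter (0.11, adjusted p 0.0494) and without that library (0.16, adjusted p 0.000502). Pfkm, the muscle type, fell from 75.8 ± 2.37 to 65.9 ± 5.01 CPM (SD, n = 3, -0.20 ± 0.0596 in log2 units with its SE, adjusted p 0.00650 by edgeR). Tpi1, which interconverts the triose phosphates, had 1264, 1342 and 1302 CPM in the control libraries and 1297, 1128 and 1329 CPM in the induced ones. Induced replicate 2 was lowest of all 6 libraries while the other induced libraries lay within the control range (-0.06 ± 0.0529 in log2 units with its SE, adjusted p 0.354 by edgeR), and without it the sign turned (0.02).

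In lower glycolysis, from glyceraldehyde phosphate to pyruvate, 4 of 7 members were called lower, 1 higher and 2 were not called. Eno3, the muscle enolase and a usual marker of striated muscle, fell 4.52-fold (ENSMUSG00000060600, chromosome 11, 70657202 to 70662513). Its values were 172, 188 and 176 CPM in the control libraries and 40.6, 33.9 and 44.0 CPM in the induced ones (-2.18 ± 0.0745 in log2 units with its SE, adjusted p 1.73e-14 by edgeR). Eno1, the ubiquitous enolase, fell from 2559.6 ± 75.7 to 1989 ± 121 CPM, and Eno2, the neuronal enolase, from 43.0 ± 2.61 to 33.7 ± 1.11 CPM (SD, n = 3, log2 fold changes -0.36 and -0.35, edgeR adjusted p 1.24e-06 and 0.000102). Pkm, the pyruvate kinase that ends the pathway, had 3007, 3148 and 3163 CPM in the control libraries and 2859, 2483 and 2796 CPM in the induced ones, lower in every induced library (-0.20 ± 0.0479 in log2 units with its SE, adjusted p 0.00161 by edgeR). Pgam1, the mutase before enolase, was the one that rose, from 527 ± 9.14 to 828 ± 7.41 CPM (SD, n = 3, 0.65 ± 0.0410 in log2 units with its SE, adjusted p 1.03e-10 by edgeR). Pgk1, which makes the first ATP of the pathway, had 1238, 1241 and 1230.0 CPM in the control libraries and 1270.3, 1261 and 1366 CPM in the induced ones. These groups were adjacent without overlap, and Pgk1 was not called (0.07 ± 0.0421 in log2 units with its SE, adjusted p 0.146 by edgeR), but passed without induced replicate 2 (adjusted p 0.0171).

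Gapdh, the dehydrogenase that many assays use as a reference, varied too much within each group to be compared. It had 259.8, 53.4 and 11.4 CPM in the control libraries and 20.9, 221 and 15.2 CPM in the induced ones, so that libraries of the same group differed by more than 10-fold. Its within-group SD of 2.16 on the log2 scale was the largest of all 9782 genes with at least 1000 reads, where the median was 0.0775. Of its transcript words of 50 bases, 25.1% also occur in other annotated genes, and 213 of the 223 genes that share them are pseudogenes. Its count is uncertain where reads were shared. Pgk1, Pgam1, Eno1 and Pkm share 53.9%, 36.2%, 26.0% and 25.8% of such words, with within-group SDs of 0.0453, 0.0200, 0.0694 and 0.0823. The cause of the spread of Gapdh was not tested. The fold change of Gapdh was -0.34 with an edgeR adjusted p of 0.726. It moved to -2.58 without induced replicate 2 (adjusted p 0.000709) and to 1.41 without control replicate 1 (adjusted p 0.134), it turned positive without induced replicate 1 or 3 (0.13 and 0.17), and it passed the threshold with no filter (adjusted p 6.37e-08, log2 fold change -0.33).

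**Figure D4:**
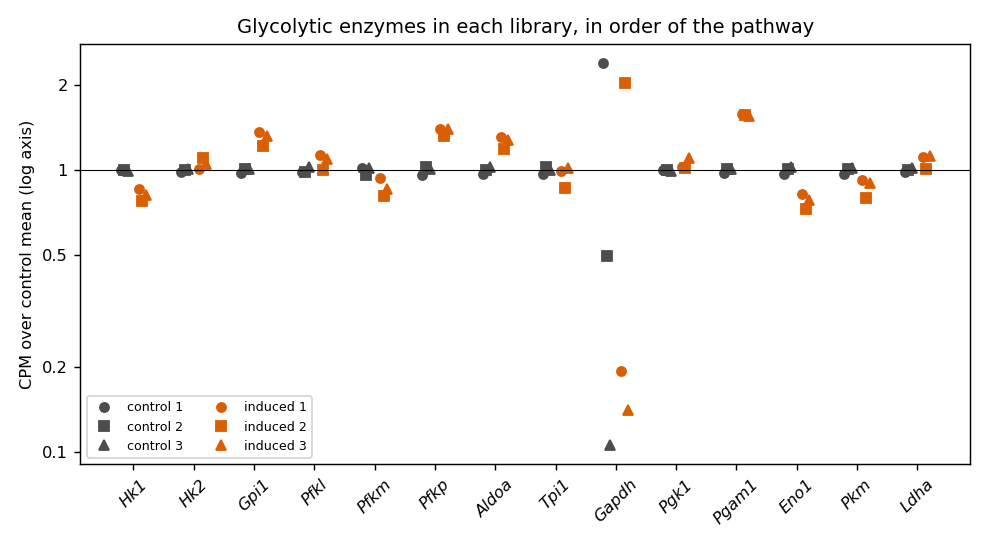
Level of 14 glycolytic enzymes in each library, divided by the mean of the control libraries (log axis), in the order of the pathway from left to right, with control libraries in grey and induced libraries in orange. Gapdh spreads over more than 10-fold within each group, while every other enzyme shown stays within 2-fold of its control mean, and induced replicate 2 (square) is the lowest induced library for most of them.

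Without Gapdh, 18 loci of glycolytic enzymes and lactate dehydrogenases took 1.47% ± 0.0268 of the library in control cells and 1.44% ± 0.0641 in induced cells (SD, n = 3). The means differed by less than the spread within the induced group, where replicate 2 was lowest. Of 15 other glycolytic and gluconeogenic enzymes 8 were tested, 4 called higher and 3 lower. The muscle mutase Pgam2 and the bisphosphoglycerate mutase Bpgm had log2 fold changes of 0.95 and 0.93, and Pck2, the mitochondrial enzyme that returns oxaloacetate to phosphoenolpyruvate, fell from 254 ± 3.12 to 160.3 ± 6.25 CPM (SD, n = 3, -0.66 ± 0.0475 in log2 units with its SE, adjusted p 6.99e-10 by edgeR). The fructose bisphosphatases Fbp1 and Fbp2, needed to run the pathway backwards, had 0 reads and 1 read in all.

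The 4 Pfkfb enzymes make and remove fructose 2,6-bisphosphate, the activator of phosphofructokinase. Of them 1 was called higher and 2 lower. Pfkfb3, the isoform with the strongest kinase activity, had 40.8, 43.6 and 44.2 CPM in the control libraries and 59.1, 63.9 and 61.2 CPM in the induced ones and rose (0.52 ± 0.0565 in log2 units with its SE, adjusted p 2.16e-07 by edgeR). Pfkfb4, best known as a hypoxia target of tumour cells, fell 2.36-fold. Its values were 13.4, 13.4 and 13.8 CPM in the control libraries and 6.26, 5.62 and 5.34 CPM in the induced ones, with no overlap (-1.24 ± 0.113 in log2 units with its SE, adjusted p 1.94e-08 by edgeR). Pfkfb2, the heart isoform, had 11.04, 10.4 and 10.9 CPM in the control libraries and 11.1, 12.0 and 10.1 CPM in the induced ones and was not called (log2 fold change 0.04, edgeR adjusted p 0.759, -0.02 without induced replicate 2). Pfkfb1, the liver isoform, was scarce and fell from 2.22 ± 0.462 to 1.40 ± 0.312 CPM (SD, n = 3, -0.66 ± 0.264 in log2 units with its SE, adjusted p 0.0359 by edgeR). This last call was lost with DESeq2 (adjusted p 0.138) and without control replicate 3, induced replicate 1 or induced replicate 2 (adjusted p 0.191, 0.143 and 0.0515).

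All 4 members for lactate were called, 3 higher and 1 lower, where 64.8% of all genes tested were called. The call of Ldha was lost under several alternatives, as given below. The transporters moved in opposite directions. Slc16a1 (ENSMUSG00000032902, chromosome 3, 104638668 to 104658462) encodes the monocarboxylate transporter MCT1, which moves lactate and pyruvate in either direction across the cell membrane. It had 72.0, 69.1 and 68.2 CPM in the control libraries and 205, 213 and 200.1 CPM in the induced ones, 2.95-fold higher in induced cells (1.56 ± 0.0511 in log2 units with its SE, adjusted p 9.19e-15 by edgeR). Slc16a3 encodes MCT4, the low-affinity exporter of strongly glycolytic cells and a known hypoxia target, and it fell from 101 ± 1.08 to 84.8 ± 4.01 CPM (SD, n = 3, -0.25 ± 0.0530 in log2 units with its SE, adjusted p 0.000398 by edgeR). Both transporters need a chaperone to reach the membrane. Basigin (Bsg), which serves MCT1 and MCT4, rose 4.43-fold, with 1526, 1506 and 1574 CPM in the control libraries and 7013, 6362 and 7045 CPM in the induced ones (2.15 ± 0.0444 in log2 units with its SE, adjusted p 2.19e-17 by edgeR). Embigin (Emb), its relative, had 57.3, 60.5 and 60.3 CPM in the control libraries and 16.2, 16.1 and 17.0 CPM in the induced ones (-1.85 ± 0.0636 in log2 units with its SE, adjusted p 1.78e-14 by edgeR).

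Ldha, the lactate dehydrogenase that favours lactate production, is per length the most abundant member in control cells. It had 2067, 2101 and 2132 CPM in the control libraries and 2345, 2124 and 2365 CPM in the induced ones, and the lowest induced library lay below the highest control library (0.12 ± 0.0440 in log2 units with its SE, adjusted p 0.0260 by edgeR). This small call was lost under library totals alone (adjusted p 0.0876), with limma on either FPKM scale, and without control replicate 1, control replicate 2, induced replicate 1 or induced replicate 3 (adjusted p 0.111, 0.0721, 0.0852 and 0.0603). Its adjusted p ranged from 2.67e-05 to 0.123 over all alternatives. Ldhb, the form that prevails in adult heart and favours the use of lactate, rose from 38.2 ± 0.417 to 45.5 ± 0.213 CPM (SD, n = 3, 0.25 ± 0.0551 in log2 units with its SE, adjusted p 0.000597 by edgeR).

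At the entry of pyruvate into mitochondria, 3 of 4 inhibitory kinases were called higher. Of 3 members that encode subunits of the complex, 2 were called lower and the other was not called. Over all genes tested, 64.8% were called, 32.6% higher and 32.2% lower, so counts over so few genes lie near the background. Pdk4 (ENSMUSG00000019577, chromosome 6, 5483351 to 5496309) is the kinase that fasting and fatty acids induce in heart and muscle. It had 8.45, 7.69 and 7.81 CPM in the control libraries and 27.7, 25.4 and 23.7 CPM in the induced ones, 3.20-fold higher (1.68 ± 0.0944 in log2 units with its SE, adjusted p 2.10e-11 by edgeR). Pdk2, the widely expressed kinase, rose from 22.6 ± 0.833 to 33.4 ± 1.07 CPM (SD, n = 3), and Pdk1, a hypoxia target, from 114 ± 5.38 to 132 ± 6.32 CPM (log2 fold changes 0.56 and 0.21, edgeR adjusted p 1.14e-06 and 0.00207). Pdk3, per length the leading kinase gene, had 47.9, 44.6 and 47.1 CPM in the control libraries and 48.6, 52.3 and 52.0 CPM in the induced ones. Its groups were adjacent without overlap, and it was not called (0.13 ± 0.0563 in log2 units with its SE, adjusted p 0.0511 by edgeR), but passed with median-ratio size factors, the stricter filter, limma on either FPKM scale and without induced replicate 1 (adjusted p 0.0362, 0.0451, 0.0358, 0.0354 and 0.0226).

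Of the complex itself, Pdha1, the catalytic alpha subunit on the X chromosome, had 143, 145 and 143 CPM in the control libraries and 124, 130.4 and 127 CPM in the induced ones, lower in every induced library (-0.18 ± 0.0480 in log2 units with its SE, adjusted p 0.00346 by edgeR). Dlat, the acetyltransferase core, fell from 78.9 ± 2.34 to 66.7 ± 2.37 CPM (SD, n = 3, -0.24 ± 0.0533 in log2 units with its SE, adjusted p 0.000634 by edgeR). Pdhb, the beta subunit, had 81.7, 79.6 and 75.5 CPM in the control libraries and 86.6, 77.3 and 83.9 CPM in the induced ones, with overlapping groups (0.07 ± 0.0573 in log2 units with its SE, adjusted p 0.326 by edgeR), and passed without induced replicate 2 (adjusted p 0.0399). Of the other components, in the second list, Pdhx, which binds Dld to the core, was higher (0.27 ± 0.0811 in log2 units with its SE, adjusted p 0.00772 by edgeR), and Dld, the dehydrogenase component, was lower (-0.14 ± 0.0563 in log2 units with its SE, adjusted p 0.0316 by edgeR). Pdp1 and Pdp2, the phosphatases that undo the kinases, were both lower. Their regulatory subunit Pdpr was higher (0.23 on the log2 scale, edgeR adjusted p 0.0156). Pdp2 had 14.3, 14.1 and 14.4 CPM in the control libraries and 9.03, 8.88 and 8.32 CPM in the induced ones (-0.71 ± 0.0989 in log2 units with its SE, adjusted p 5.23e-06 by edgeR), and Pdp1 had a log2 fold change of -0.64 (edgeR adjusted p 1.10e-05). The carrier subunits Mpc1 and Mpc2, which bring pyruvate across the inner membrane, and pyruvate carboxylase (Pcx) were higher by 0.91, 0.48 and 0.38 on the log2 scale. Of the 14 other lactate and pyruvate genes 11 were tested and 11 called, 7 higher and 4 lower. In the whole second list, 56 of 72 genes were tested, 35 called higher and 12 lower (47 of 56, 83.9%, against 64.8% of all genes tested).

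Levels of related genes were compared per length, as each gene's share of the summed FPKM (reads scaled by gene length and library depth, as deposited) of its family. In control cells Slc16a1 held less of the MCT1 and MCT4 sum than Slc16a3, and in induced cells more, from 45.3% ± 0.937 to 74.5% ± 1.48 (SD, n = 3). Epas1 rose from 2.74% ± 0.120 to 17.3% ± 0.892 of the sum of Epas1 and Hif1a, so that Hif1a stayed the more abundant transcript in every library. The share of Eno3 among the enolases changed from 17.5% ± 0.623 to 5.67% ± 0.515, and that of Eno1 from 81.0% ± 0.527 to 92.5% ± 0.517. Pfkfb3 went from 54.0% ± 0.981 to 72.6% ± 0.941 of the 4 bifunctional enzymes, and Pfkfb4 from 26.5% ± 0.496 to 10.6% ± 1.07.

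The share of Pdk4 among the kinases moved from 5.38% ± 0.103 to 13.3% ± 1.11, and Pdk3 kept the largest share in each group. Hk2 went from 40.0% ± 0.346 to 46.3% ± 2.39 of the sum of Hk1 and Hk2. Egln3 went from 31.8% ± 0.767 to 38.9% ± 1.06 of the sum of Egln1 and Egln3. That sum leaves out the related hydroxylase gene Egln2 of the second list, which was not called. Egln2 had 31.6 ± 0.900 FPKM in control and 29.9 ± 3.19 in induced cells, beside 19.6 ± 0.294 and 41.1 ± 1.59 for Egln3. Aldoc, for all its rise, made up only 0.386% ± 0.0450 of the aldolase sum in induced cells. Of 28 shares in 11 families, 25 did not overlap between the groups, the exceptions being those of Slc2a1, Slc2a3 and Pfkfb2. The CPM levels of 68.6% of all genes tested did not overlap either, so that separated groups are common in this comparison. In families of 2 genes the shares are complements and count as 1 observation. For each of the 25 the two-sided exact permutation test gave p = 0.1 (0.112 after Benjamini-Hochberg adjustment over the 28), the smallest value 3 against 3 libraries can give, so this test cannot pass 0.05 on a share with 3 libraries per group. The smallest changes that did not overlap were those of Eno2, Aldoc and Ldhb, at 0.242, 0.330 and 0.353 percentage points.

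**Figure D5:**
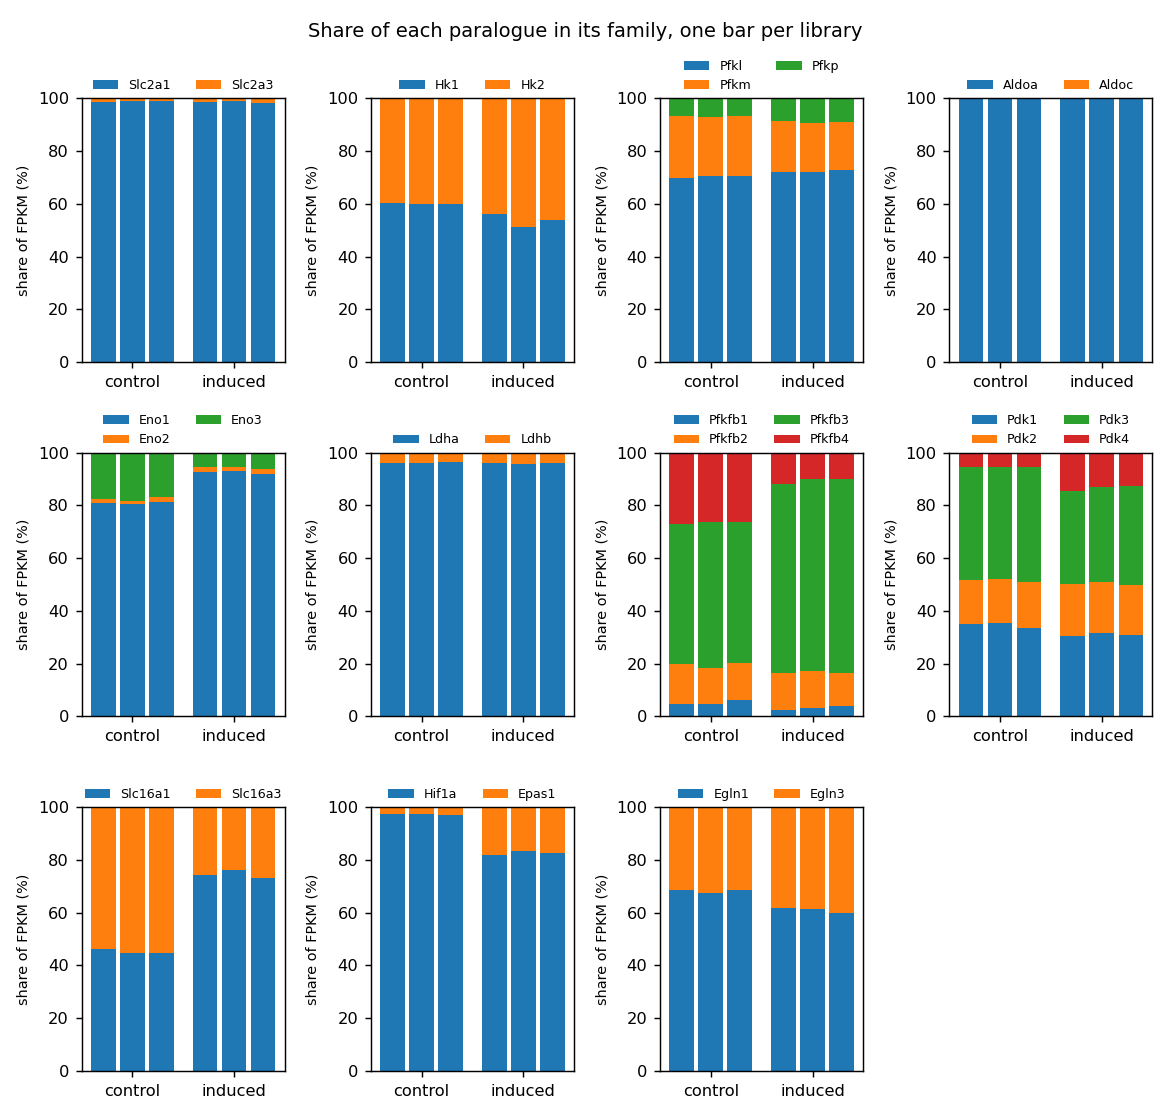
Share of each gene in the summed FPKM of its family (y axis, percent), with a bar for each of the 3 control and 3 induced libraries and a colour for each gene. The bars of a group look alike, and the widest steps between groups are those of Slc16a1, Pfkfb3, Pfkfb4, Epas1 and Eno3, at 29.1, 18.6, -15.9, 14.5 and -11.8 percentage points.

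Among the members with the highest levels per length, Ldha had 629 ± 10.3 FPKM in control cells, Pkm 616 ± 17.1, Aldoa 573 ± 16.4, Pgk1 546 ± 1.52, Eno1 472 ± 14.2 and Tpi1 469 ± 13.4 (SD, n = 3). The neighbours Ldha and Pkm, and Eno1 and Tpi1, differed by less than the larger SD of each pair. In induced cells Aldoa stood first at 728 ± 39.7 FPKM, and Ldha at 688 ± 41.3 was lower by less than its SD. Pgam1, at 452 ± 4.41 FPKM, had come level with Tpi1 at 454 ± 39.8, while in control cells it had stood at 285 ± 5.02.

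Several of these abundant enzymes share sequence with other annotated genes. Of the 50-base words of their transcripts, 53.9% in Pgk1, 36.2% in Pgam1, 26.0% in Eno1, 25.8% in Pkm, 21.0% in Ldhb, 9.3% in Ldha and 6.4% in Aldoa recur in other annotated genes, so their counts are uncertain where reads were shared. Exons of Pfkfb2, Pdha1, Pkm, Gpi1, Pfkm and Hif1a are overlapped by other genes over 19.5%, 16.1%, 15.3%, 11.5%, 10.7% and 8.1% of their length. For Epas1, Egln1, Egln3, Slc16a1, Eno3 and Aldoc both shares were 0.0%. The deposited coordinates of Epas1 and Pgam1 differ from those in GENCODE M21, so their shares describe the GENCODE gene models.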

How the data were processed

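Total RNA of 3 control and 3 induced samples was sequenced on a NovaSeq instrument per the deposited design, while the methods name other instruments. The deposited table gives, for every gene and library, raw counts and FPKM values. Per the labels' processing notes, HISAT2 2.0.5, featureCounts 1.5.0-p3 and DESeq2 1.16.1 were used on mm10, while the methods of the paper name DESeq and 2 replicates per condition. The annotation, strand setting and handling of reads with several positions are not given in the sources used here. The authors' fold changes, p-values and Gene Ontology tables hold their own comparison and were not used. The deposited FPKM values divide counts by gene length and depth. The deposited gene length, another column of the table, was used for counts per kilobase.

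The count fit used edgeR 4.0.16 under R 4.3.3. The filterByExpr function with a count of 10 and a total of 15 as minima retained 14246 genes. These were scaled by TMM and tested two-sided with the quasi-likelihood test and Benjamini-Hochberg adjustment. Levels are mean ± SD over 3 libraries. Total counts were 19041133 to 19823369 per library, and 0 reads in a library allow up to 0.151 to 0.158 CPM (3 counts). Such limits cover counting error only. No pair of libraries was a copy (chi-square per degree of freedom 2.56 to 8.91). Scripts were tested on simulated counts. Coordinates are those of the deposited table. Transcript words and exon overlaps come from GENCODE M21 (GRCm38), and promoter windows from RefSeq. Where a gene had several windows, the one nearest to the deposited gene start was taken.

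The members and lists were chosen with earlier results of these data known. Values in every library are given for members called with at least 2-fold change, for the tested member with the highest mean FPKM of each role, and for members not called. Of the second list, the 4 largest rises and 4 largest falls among called genes with at least 5 CPM are named with values, and other genes were named after their values were seen. Each library was left out in turn as an alternative. Other alternatives replaced the tool (DESeq2 1.42.0, or limma 3.58.1 on FPKM with a pseudocount of 1 or 0.1), the scaling (size factors from median ratios, or none beyond library totals), the filter (omitted, or a mean of 10 counts with 1 CPM in at least 3 libraries), the design (replicate number as a block) or the threshold (0.01).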

Additional observations from a re-analysis of the deposited data

How the results depend on the processing

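Of 545 values of single members under alternatives, 509 kept direction and side of the threshold, 11 lost it, 12 gained it and 13 turned in sign, and all 13 belong to members that were not called. The sign turned for Slc2a1 (-0.00256 under library totals alone and -0.000273 without induced replicate 1), Hif1a (-0.0258 under library totals alone, -0.00147 without control replicate 2, -0.0680 without induced replicate 2), Tpi1 (0.0177 without induced replicate 2), Pfkfb2 (-0.0168 without induced replicate 2), the second Aldoa locus ENSMUSG00000114515 (-0.0890, -0.234 and -0.165 without control replicate 1, control replicate 2 and induced replicate 3) and Gapdh (1.41, 0.129 and 0.171 without control replicate 1, induced replicate 1 and induced replicate 3). With single libraries left out, the opposite ends of the ranges were 0.0656 for Slc2a1, 0.0738 for Hif1a, -0.0945 for Tpi1, 0.111 for Pfkfb2, 0.662 for the second Aldoa locus and -2.58 for Gapdh. All 11 lost calls were of Ldha and Pfkfb1. DESeq2 called 26 members, each of which edgeR also called.

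Between 25 and 29 members were called under the other settings, and 26 to 31 with one library left out. From 7 to 9 were also changed at least 2-fold, where the 1 lost was Pfkfb4 under limma on log2(FPKM + 1) and the 1 gained was Gapdh without induced replicate 2. With limma and a pseudocount of 1, 1032 of all genes passed both the test and the 2-fold limit, against 2116 with limma and a pseudocount of 0.1 and 2438 with edgeR. The step between both limma fits comes from the pseudocount, which is all that differs between them. With the pseudocount of 1 Aldoc had a log2 fold change of 1.53 and Pfkfb4 of -0.79. The members' median moved by more than its spread, to 0.0432 under library totals alone, 0.113 under limma on log2(FPKM + 0.1) and 0.0987 with the replicate block, and lay between 0.0814 and 0.130 with one library left out, highest without control replicate 3. The median over all genes shifted by -0.0372 under library totals. Same-numbered libraries did not deviate together (correlations 0.00902, -0.00909 and 0.0269), and with the replicate block 27 members were called. Counts per kilobase gave the isoform shares of FPKM by construction, and leaving out 1 of 3 libraries must move a group's mean share by less than its SD, so neither tests how stable the shares are. The cause of the other changes was not tested. Among the members the SE was largest for Gapdh (0.783), followed by the second Aldoa locus ENSMUSG00000114515 (0.435), Pfkfb1 (0.264), Aldoc (0.206) and Slc2a3 (0.182), and apart from Gapdh these have few reads.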
